A study of Mus musculus with 8 samples.

Results

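Of the 52997 gene symbols counted, 5 are described here across all libraries of the study: Lef1, Tcf7, Bach2, Foxp1 and Foxo1, transcription factors of naive T cells, taken by gene symbol and not by any measured value. All 5 had enough counts to be tested, among 11490 genes that did. The sequenced RNA came from hepatic CD4+ T cells of C57BL/6 mice that lack Aire, the thymic regulator of self-antigen expression, and carry a GFP reporter of Foxp3. The cells were live (DAPI-), CD45+, TCRb+, CD4+ and Foxp3-negative by the reporter. They were sorted by surface PD-1, an inhibitory receptor that T cells display after antigen stimulation, which gave PD-1- and PD-1+ cells at 5 and at 10 days of age. Each of these 4 groups had 2 libraries of 1000 cells. Every group carried the Aire deficiency and the reporter, no group came from Aire-sufficient mice, and the labels do not say whether libraries came from separate or pooled animals, so p-values measure the spread between these libraries only.

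As background, Lef1 and Tcf7 encode the paired HMG-box factors LEF1 and TCF1, which bind DNA with β-catenin or with Groucho-type (TLE) corepressors, act in T cell development and are abundant in naive and memory-precursor T cells. Bach2 encodes a repressor that pairs with small Maf proteins, occupies sites also used by AP-1 factors, and restrains effector genes. Foxp1 and Foxo1 encode forkhead factors: FOXP1 maintains quiescence, and FOXO1, which AKT phosphorylation sends out of the nucleus, drives homing and survival genes of naive T cells.

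In GENCODE M21 on GRCm38 (mm10), Lef1 (ENSMUSG00000027985.14) lies on the plus strand at chr3:131110471-131224356 and Foxo1 (ENSMUSG00000044167.6) on the plus strand at chr3:52268336-52353221. Tcf7 (ENSMUSG00000000782.15) lies on the minus strand at chr11:52252371-52283014, Bach2 (ENSMUSG00000040270.16) on the plus strand at chr4:32238804-32586108, and Foxp1 (ENSMUSG00000030067.17) on the minus strand at chr6:98925338-99522721. RefSeq (build GRCm38.p6) gave 11 promoter windows for the 5 genes, each from 250 bases before to 50 after an annotated transcript start. They were searched on both strands for CTTTGA, the core of TCF/LEF sites, TGTTTA, the core of forkhead sites, TGAGTCA, the AP-1 site that Bach2 partners can share, and TGTGGT, a Runx core. Of the 11 windows, 3 held CTTTGA, 5 held TGTTTA, and none held TGAGTCA or TGTGGT, where 16.0%, 13.4%, 5.20% and 16.8% of all 32851 windows of this length held them. The windows of 1 gene can overlap, and which starts were used in these cells was not measured. The window with the most matches is shown for each of the 4 genes that had any. The TCF/LEF and forkhead cores are those of the families of LEF1, TCF1, FOXP1 and FOXO1, not of BACH2. Capitals mark TCAAAG, the reverse complement of CTTTGA, and TGTTTA or its reverse complement TAAACA. The windows run 5′ to 3′ on the gene's strand: Lef1 chr3:131156044-131156343 (+), Tcf7 chr11:52282546-52282845 (-), Bach2 chr4:32417185-32417484 (+) and Foxp1 chr6:99266466-99266765 (-).
Lef1: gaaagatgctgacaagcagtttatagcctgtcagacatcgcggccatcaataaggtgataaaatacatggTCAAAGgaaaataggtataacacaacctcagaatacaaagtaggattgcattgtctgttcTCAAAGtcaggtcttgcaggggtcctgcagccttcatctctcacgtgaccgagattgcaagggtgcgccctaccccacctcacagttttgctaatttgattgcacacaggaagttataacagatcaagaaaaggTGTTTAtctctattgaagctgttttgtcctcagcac
Tcf7: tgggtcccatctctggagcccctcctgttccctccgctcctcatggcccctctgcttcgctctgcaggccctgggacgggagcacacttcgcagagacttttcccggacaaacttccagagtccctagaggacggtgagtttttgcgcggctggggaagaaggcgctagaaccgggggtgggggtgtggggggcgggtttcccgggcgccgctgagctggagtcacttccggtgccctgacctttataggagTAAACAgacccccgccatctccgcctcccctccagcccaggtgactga
Bach2: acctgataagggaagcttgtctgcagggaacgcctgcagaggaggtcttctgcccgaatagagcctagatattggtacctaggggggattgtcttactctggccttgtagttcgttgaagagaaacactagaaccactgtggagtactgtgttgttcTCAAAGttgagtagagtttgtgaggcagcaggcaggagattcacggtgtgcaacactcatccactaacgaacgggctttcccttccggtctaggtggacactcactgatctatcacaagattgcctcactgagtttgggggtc
Foxp1: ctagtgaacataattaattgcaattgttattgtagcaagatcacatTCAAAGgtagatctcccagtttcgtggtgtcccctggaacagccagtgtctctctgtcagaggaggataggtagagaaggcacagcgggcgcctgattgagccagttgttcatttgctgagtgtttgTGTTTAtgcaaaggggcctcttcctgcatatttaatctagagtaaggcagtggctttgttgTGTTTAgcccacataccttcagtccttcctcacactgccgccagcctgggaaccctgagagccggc
The Lef1 window held the TCF/LEF core at 180 and 120 bases before the start and the forkhead core 15 bases after it, and the Foxp1 window held the TCF/LEF core 204 and the forkhead core 77 and 16 bases before the start. The Tcf7 window held a forkhead core 3 bases after the start and the Bach2 window a TCF/LEF core 93 bases before it. The Bach2 and Foxp1 windows shown are at starts inside the annotated genes, far from the gene starts at 32238804 and 99522721. Positions are those of the leftmost letter. The Lef1 windows from 131110047, 131110073 and 131112541, nearer to the annotated gene start than the one shown, held none of the 4 motifs. The other Tcf7 window held none either, and each of the other Foxp1 windows held 1 forkhead core. The only Foxo1 window held none of the 4 motifs. A match describes letters and not a bound site.

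Library totals ran from 1473216 to 3019551 counts. Pdcd1, which encodes the sorted receptor, stood at 0.568 to 1.95 CPM in the PD-1- and at 269 to 696 CPM in the PD-1+ libraries. CPM, the scaled count of a gene, uses as library size the summed tested genes multiplied by a TMM factor. Aire had 3 counts in all libraries together, which does not test the genotype in T cells. Both 5-day libraries numbered 3 held 672 and 601 counts of Y-linked genes where the other 6 held 0, so sex and age were partly mixed. Of 10 CD4 T cell markers, 9 did not pass the test between PD-1+ and PD-1- cells and Cd6 was lower. Their summed level in PD-1+ libraries was lower than in PD-1- libraries at 5 days (4986 to 5248 against 5415 to 6372 CPM) and higher at 10 days (7197 to 8326 against 5632 to 5933 CPM). The interaction of PD-1 and age was called for Cd3e, Cd3g and Trbc1, and 5 of the 10 were called higher at 10 than at 5 days in PD-1+ cells. Among all tested genes these tests called 2.12% and 14.4%, in either direction. The count of markers higher in PD-1+ cells over both ages went from 0 to 1 or 2 (Cd4, Trbc1) under 6 alternatives.

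PD-1+ cells held less of all 5 factors than PD-1- cells did, at both ages. Over both ages PD-1+ cells held 14.9% of the PD-1- level of Lef1, 15.9% of Tcf7, 16.3% of Bach2, 29.0% of Foxp1 and 33.2% of Foxo1. For each of the 5, all 4 PD-1+ libraries lay below all 4 PD-1- libraries, as they did for 17.5% of all tested genes. In these bulk samples, fewer cells that express a factor and less of its RNA per cell cannot be told apart.

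**Figure D1:**
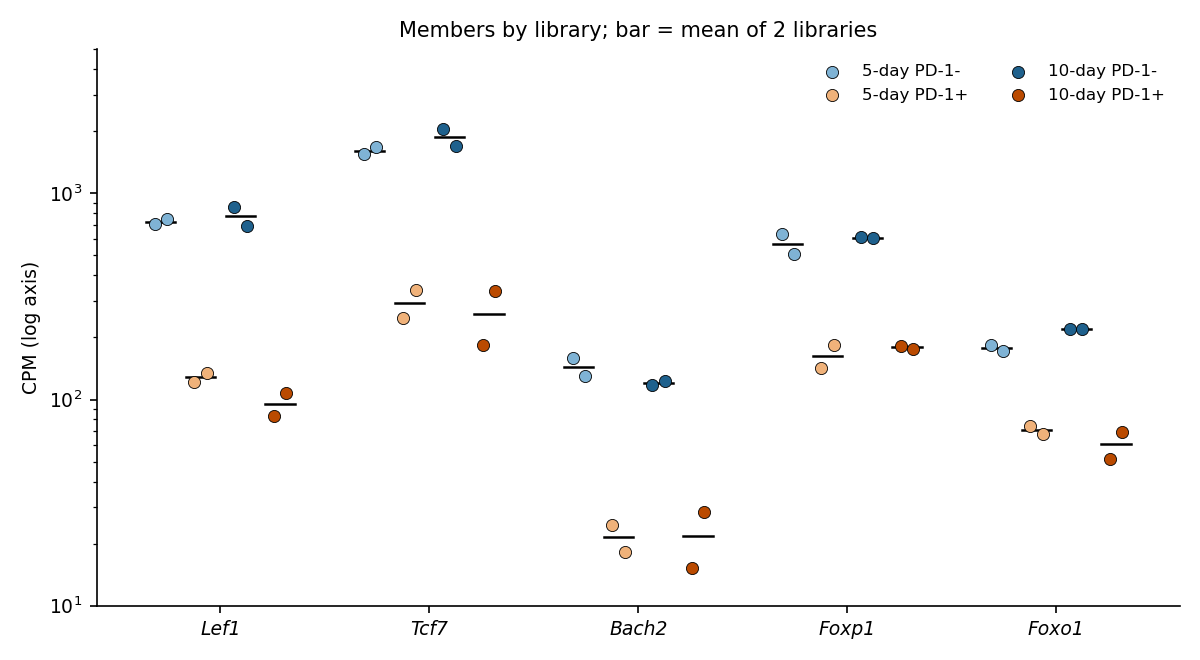
CPM on a log axis of the 5 factors in each of the 8 libraries; each point is 1 library and each bar the mean of the 2 libraries of a group. For every factor the PD-1+ points lie below the PD-1- points. Over both ages PD-1+ cells hold between 14.9% (Lef1) and 33.2% (Foxo1) of the PD-1- level; at 5 days alone Bach2 has the lowest share (14.8%) and at 10 days alone Foxp1 the highest (29.3%).

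Lef1, the partner of TCF1, reached 709 and 747 CPM in 5-day PD-1- replicates 2 and 3 and 859 and 697 CPM in 10-day PD-1- replicates 1 and 2. In PD-1+ cells it was at 122 and 135 CPM on day 5 and at 83.0 and 108 CPM on day 10, in the same replicate order. The 4 PD-1- libraries were close to each other, and the lowest of them was 5.16 times the highest PD-1+ library. The log2 fold change between PD-1+ and PD-1- cells, adjusted for age, was -2.77 ± 0.16 (SE, 4 libraries per population; quasi-likelihood test of edgeR, adjusted p = 7.03e-09).

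Tcf7, the gene of TCF1, reached 1549 and 1676 CPM in 5-day and 2046 and 1698 CPM in 10-day PD-1- libraries. In PD-1+ libraries it was at 248 and 340 CPM on day 5 and at 183 and 334 CPM on day 10. The PD-1+ libraries differed among themselves more than the PD-1- libraries did, with the 10-day replicate 1 lowest, and the populations did not overlap. The difference was -2.65 ± 0.20 on the log2 scale (edgeR adjusted p = 2.32e-07). TCF1 also marks a self-renewing subset among PD-1+ T cells in chronic infection and tumours, which bulk libraries do not resolve.

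Bach2, the repressor of effector genes, reached 159 and 129 CPM in 5-day and 118 and 124 CPM in 10-day PD-1- libraries. The PD-1+ libraries stood at 24.7 and 18.1 CPM on day 5 and at 15.3 and 28.5 CPM on day 10, which is 48, 38, 43 and 81 counts. Bach2 thus rested on the fewest counts of the 5, and its highest PD-1+ library still lay 4.14 times below its lowest PD-1- library. The log2 fold change was -2.60 ± 0.21 (edgeR adjusted p = 1.76e-07).

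Foxp1, the quiescence factor, reached 632 and 506 CPM in 5-day and 614 and 606 CPM in 10-day PD-1- libraries. It reached 142 and 184 CPM in 5-day and 182 and 176 CPM in 10-day PD-1+ libraries. Each population was tight, and the log2 difference was -1.79 ± 0.13 (edgeR adjusted p = 1.07e-07).

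Foxo1, the driver of homing and survival genes, reached 185 and 171 CPM in 5-day and 220 and 220 CPM in 10-day PD-1- libraries. It reached 74.6 and 68.3 CPM in 5-day and 51.3 and 69.9 CPM in 10-day PD-1+ libraries. Over both ages it had the smallest difference of the 5, -1.59 ± 0.16 (edgeR adjusted p = 1.75e-06), and its lowest PD-1- library was 2.30 times its highest PD-1+ library.

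All 5 passed the test over both ages, where 19.6% of the tested genes were called lower. All 5 passed it at 5 days, where 16.7% were called lower, and at 10 days, where 12.9% were. The median log2 fold change of the 5 was -2.60 and that of all tested genes -0.01. From 5 to 10 days the estimate moved from -2.50 to -3.03 for Lef1, from -2.45 to -2.86 for Tcf7, from -2.76 to -2.46 for Bach2, from -1.80 to -1.77 for Foxp1 and from -1.32 to -1.86 for Foxo1. None of these 5 changes of the PD-1 effect passed the test of the interaction, which called 2.12% of the tested genes. Their adjusted p ran from 0.277 for Lef1 (unadjusted p = 0.0334) to 0.972 for Foxp1 in edgeR, and 1 of 5 had an unadjusted p below 0.05, as did 15% of the tested genes.

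The estimated effects of age were smaller in size than those of PD-1. None of the 5 differed between 10 and 5 days by edgeR, over both populations together (4.87% of tested genes called), in PD-1- cells (0.27% called) or in PD-1+ cells (14.4% called). At an unadjusted p below 0.05 the counts were 0, 0 and 1 of 5, where 20.8%, 10.6% and 28.3% of the tested genes were below it. The 1 was Lef1 in PD-1+ cells, at -0.43 ± 0.17 (unadjusted p = 0.0192, edgeR adjusted p = 0.0951), with both 10-day libraries below both 5-day libraries. Without 10-day PD-1+ replicate 2, Tcf7 passed the test of age in PD-1+ cells, at -0.68 (edgeR adjusted p = 0.0408), where with all libraries it was at -0.19 ± 0.28. The 95% confidence intervals of the age effect in PD-1- cells ran from -0.23 to 0.43 for Lef1 and from -0.42 to 0.85 for Tcf7. Those of Bach2, Foxp1 and Foxo1 ran from -0.78 to 0.25, from -0.23 to 0.43 and from -0.07 to 0.67, all of which include 0.

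**Figure D2:**
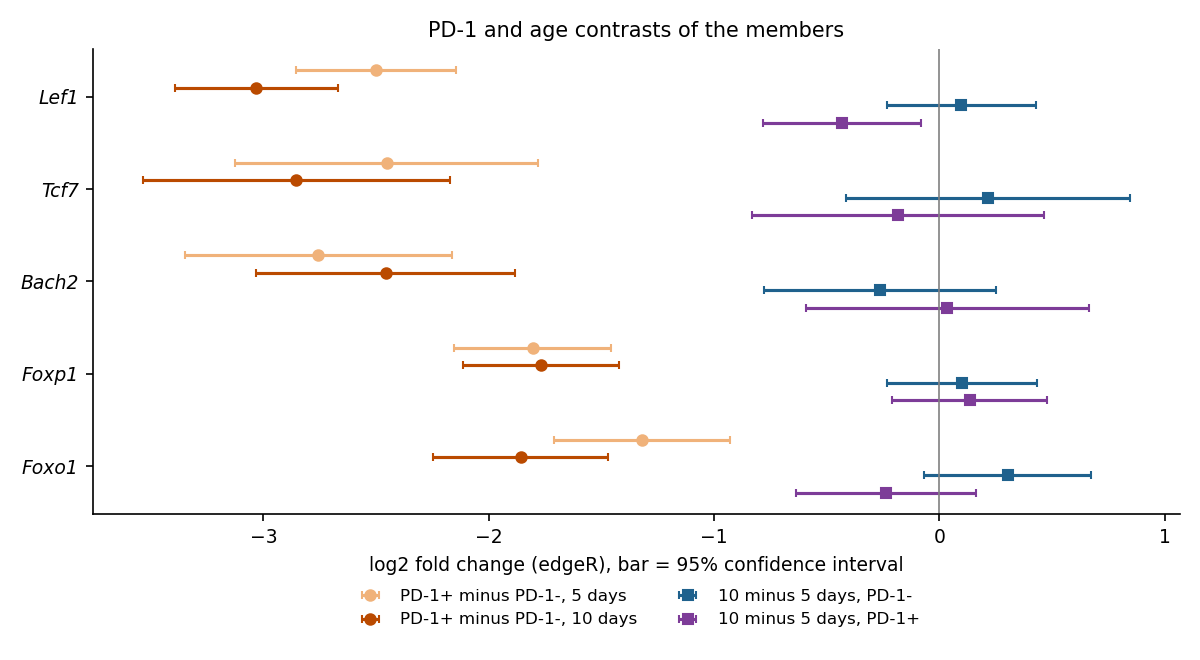
log2 fold changes of the 5 factors with 95% confidence intervals from edgeR, between the PD-1+ and PD-1- populations of 1 age (circles) and between 10 and 5 days in each population (squares). The PD-1 intervals all lie below 0; of the age intervals, that of Lef1 in PD-1+ cells leaves out 0, and its adjusted p is 0.0951.

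The libraries of a group agreed less for some factors than for others. In 10-day PD-1+ cells, replicate 2 held 1.82 times the CPM of replicate 1 for Tcf7, 1.86 times for Bach2, 1.36 times for Foxo1, 1.30 times for Lef1 and 0.964 times for Foxp1. Over tested genes that were lower in PD-1+ cells, the median of that ratio was 1.04. In the 10-day PD-1- pair the same ratio lay between 0.811 (Lef1) and 1.05 (Bach2).

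Compared per kilobase of annotated exon, Tcf7 had the highest level in PD-1- cells, 664 ± 81.1 CPM per kb (SD, n = 4), then Lef1 at 85.7 ± 8.41, Foxp1 at 42.9 ± 4.14, Foxo1 at 23.0 ± 2.86 and Bach2 at 13.3 ± 1.85 CPM per kb. No 2 neighbours in this order overlapped over the 4 libraries, and the order was the same with the longest transcript as the length. In PD-1+ cells the levels were 105 ± 28.6 CPM per kb for Tcf7, 12.7 ± 2.54 for Lef1, 12.4 ± 1.43 for Foxp1, 7.62 ± 1.18 for Foxo1 and 2.18 ± 0.60 for Bach2. Lef1 and Foxp1, well apart in PD-1- cells, overlapped there, at 9.44 to 15.4 and 10.3 to 13.4 CPM per kb. These levels take reads to be spread over all annotated exons, which was not tested.

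Lef1, Tcf7 and Bach2 were lower by more than Foxp1 and Foxo1. Within a library the ratio of the counts of 2 factors does not depend on library scaling. The ratios carry the lengths of the genes, so only their change between populations is read. All 10 pairs were compared between the populations with a two-sided exact permutation test over 4 against 4 libraries, whose smallest possible p is 0.0286. Counts of Lef1 were 3.17 to 4.36 times those of Foxo1 in PD-1- libraries and 1.54 to 1.98 times in PD-1+ libraries, without overlap (difference -1.17 in log2 ratio, exact permutation p = 0.0286, adjusted p = 0.0476 over the 10 pairs). The ratio of Tcf7 to Foxp1 was 2.45 to 3.33 in PD-1- and 1.01 to 1.90 in PD-1+ libraries (difference -0.90, exact p = 0.0286, adjusted p = 0.0476). All 6 pairs of Lef1, Tcf7 or Bach2 with Foxp1 or Foxo1 gave this adjusted p, with differences from -0.85 to -1.17 and no overlap. The 2 sets were drawn from the fold changes of these same libraries, so these p-values do not test the division independently. The 6 pairs share genes and all sit at the smallest possible p, so they are not 6 separate results. With the 2 against 2 libraries of 1 age, these 6 pairs did not overlap at either age. So few libraries separate readily, and the share over all gene pairs was not counted, so this is no further test of the division. The ratios within each set overlapped between the populations: Lef1 to Tcf7 was 0.411 to 0.458 in PD-1- and 0.322 to 0.492 in PD-1+ libraries (difference -0.08, exact p = 0.686, adjusted p = 0.762). For Lef1 to Bach2, Tcf7 to Bach2 and Foxp1 to Foxo1 the differences were -0.13, -0.06 and -0.19 (exact permutation, adjusted p = 0.762, 0.8 and 0.531). A p of this size does not show that the ratios were equal. Of these 4 pairs, Foxp1 to Foxo1 did not overlap at 5 days alone, and Lef1 to Bach2 and Tcf7 to Bach2 did not at 10 days alone.

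**Figure D3:**
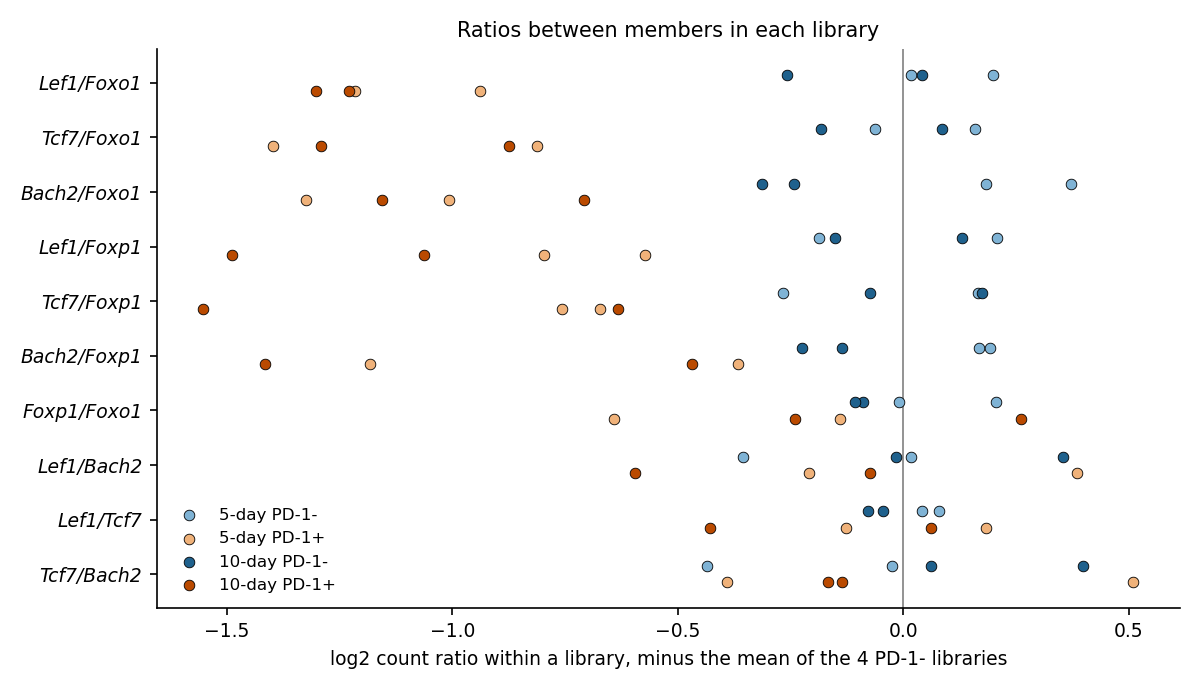
log2 ratio of the counts of 2 factors within each library, minus the mean of the 4 PD-1- libraries, for all 10 pairs; each point is 1 library. In the upper 6 pairs the PD-1+ points lie left of all PD-1- points, by -0.85 to -1.17 on average; in the lower 4 pairs the populations overlap.

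Some annotated transcripts share a locus with these genes, and the strand setting of the counting is not given in the sources used here. Reads of overlapping genes may be divided wrongly between them. Gm43352, antisense to Lef1, shares 1208 exon bases with it and had 20 to 38 counts in PD-1- and 0 to 5 in PD-1+ libraries. Gm20696 shares 300 exon bases with Foxp1 on the same strand and had 94 to 320 counts against 5 to 49, a log2 difference of -3.26 ± 0.58 (edgeR adjusted p = 0.00279). Models within introns on the same strand were also lower: Gm42449 in Lef1 had 113 to 226 counts against 6 to 11 (edgeR adjusted p = 2.62e-08), and Bach2it1 in Bach2 had 16 to 27 against 3 to 8 (edgeR adjusted p = 0.00107). Bach2os, antisense to Bach2, shares 537 exon bases with it, had 1 to 12 against 0 to 8 counts and did not pass the test (edgeR adjusted p = 0.227). In the same PD-1- libraries Lef1 itself had 1072 to 2654 counts, Foxp1 891 to 1951 and Bach2 190 to 491.

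Among 9 paralogs of the 5 factors, 6 could be tested, and 4 of them were lower in PD-1+ cells and none higher. Among all tested genes, 19.6% were called lower. The unadjusted p was below 0.05 for 5 of the 6, and for 49.5% of all tested genes. Foxo4, a forkhead factor like FOXO1, stood at 24.4 ± 6.90 CPM in the PD-1- and at 7.28 ± 1.03 CPM in the PD-1+ cells (-1.72 ± 0.30, edgeR adjusted p = 0.000363). Bach1, the paralog of Bach2 that represses heme oxygenase, was at 28.0 ± 8.93 and 10.8 ± 4.44 CPM (-1.37 ± 0.31, edgeR adjusted p = 0.00289), and Foxo3 at 58.1 ± 10.3 and 38.9 ± 16.97 CPM (-0.59 ± 0.23, edgeR adjusted p = 0.0481). The call of Foxo3 was lost by the DESeq2 test (adjusted p = 0.0556), without the low-count filter (0.0524), without robust estimation (0.0537) and without any 1 library other than 10-day PD-1+ replicate 2 (edgeR adjusted p up to 0.15). Foxp3, which defines regulatory T cells and drives the sorted reporter, stood at 7.83 ± 2.59 CPM in the PD-1- and at 0.456 ± 0.396 CPM in the PD-1+ cells. With at most 2 counts in a PD-1+ library, Foxp3 passed the count filter only through the PD-1- libraries. It could hardly be called anything but lower, and its counts are those left after the sort against its reporter. Tcf7l1 (-2.05 ± 0.84) and Foxp4 (0.59 ± 0.52) did not pass the test, though Tcf7l1 did without 10-day PD-1- replicate 2 (edgeR adjusted p = 0.0427) or 10-day PD-1+ replicate 2 (0.0187). Tcf7l2 and Foxp2 stayed at or below 2.57 CPM in each library, and Foxo6 had 0 counts.

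Partners of TCF1 and LEF1 were mixed: of 16 tested, 8 were lower, 1 was higher and 7 were not called, with a median of -0.62. Among all tested genes, 19.6% were called lower and 21.9% higher. Jup (γ-catenin, a relative of β-catenin) was lower by -2.23 ± 0.28, from 32.2 to 6.95 CPM (edgeR adjusted p = 1.87e-05). Bcl9 and Bcl9l, which tie β-catenin to its coactivators, were at -2.10 ± 0.37 and -1.08 ± 0.21, and Sox4, another HMG-box factor, at -4.19 ± 0.64. Sox4 and Tle1, another of the lower genes, had at most 2 and 4 counts in a PD-1+ library. Both passed the count filter only through the PD-1- libraries, so they could hardly be called anything but lower. Ctnnb1 (β-catenin) did not pass the test, at -0.24 ± 0.26. The 1 higher gene was the corepressor Tle3 at 0.51 ± 0.17, chosen for mention after its value was seen. That call was lost with upper-quartile scaling and without each of 4 libraries (5-day PD-1- replicate 3, 5-day PD-1+ replicate 2, 10-day PD-1- replicate 1 and 10-day PD-1+ replicate 2), with estimates from 0.40 to 0.49.

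For Foxo1, both its regulators and genes known as its targets were counted. Of 19 tested regulators in the PI3K-AKT pathway and its partners, 9 were lower, 4 higher and 6 not called, with a median of -0.41. Among all tested genes, 19.6% were called lower and 21.9% higher, so the 4 higher of 19 were near that share. Pik3ip1, an inhibitor of PI3K and itself a known FOXO1 target, stood at 187 ± 8.66 CPM in the PD-1- and at 13.1 ± 3.67 CPM in the PD-1+ cells (-3.83 ± 0.20, edgeR adjusted p = 2.22e-09). Rictor, the mTORC2 subunit needed for AKT phosphorylation, was at -1.61 ± 0.17, and Pik3cd, the leukocyte PI3K catalytic subunit, at -0.94 ± 0.14. Ywhae, a 14-3-3 protein that binds phosphorylated FOXO1, was higher by 0.94 ± 0.15. Of 17 tested targets, 14 were lower, 2 higher and 1 not called, with a median of -1.93, against the same shares of all tested genes. The lower targets included Sesn1, a stress-response sestrin, at 329 CPM in the PD-1- and 35.5 CPM in the PD-1+ cells (-3.23 ± 0.16). Tsc22d3 (GILZ) fell from 793 to 118 CPM (-2.78 ± 0.16) and Txnip, an inhibitor of glucose uptake, from 862 to 146 CPM (-2.66 ± 0.19).

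While Foxo1 did not pass the test of age in PD-1+ cells, 7 of the 17 targets did, where 14.4% of the tested genes were called, and they split, 4 higher and 3 lower at 10 days. Without 5-day PD-1+ replicate 2, or without 10-day PD-1+ replicate 1, the 4 higher became 2, since Sesn1 and Tsc22d3 lost their calls. Sesn1 (edgeR adjusted p = 0.048) lost its call under 10 alternatives in all, the DESeq2 test (adjusted p = 0.0881) among them. Txnip was higher at 10 days by 1.15 (edgeR adjusted p = 0.00029) and Tsc22d3 by 0.71 (edgeR adjusted p = 0.00934), a call that Tsc22d3 lost without 5-day PD-1+ replicate 2 (0.53, edgeR adjusted p = 0.166) or 10-day PD-1+ replicate 1 (0.62, edgeR adjusted p = 0.0759). Ccr7, the lymph node homing receptor, was lower by -1.43 (edgeR adjusted p = 0.00325), at 412 and 478 CPM at 5 days and 118 and 212 CPM at 10 days in PD-1+ cells.

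Of 15 tested genes known to be restrained by Bach2, 14 were higher in PD-1+ cells and 1 was lower, with a median of 4.11. Among all tested genes, 21.9% were called higher. Il4, Il5 and Klrg1 had at most 1 count in a PD-1- library. They could be tested only through the PD-1+ libraries, so they could hardly be called anything but higher. S100a4 (4 to 8 counts in PD-1- libraries), Il2ra (1 to 27) and Hmox1 (0 to 23) also passed the count filter only through the PD-1+ libraries. Their calls as higher were thus favoured by the filter too. The list was chosen with earlier results of these data known, so these counts are a description and no test of Bach2. Id2, an inhibitor of E-protein factors, went from 75.3 to 502 CPM (2.69 ± 0.18, edgeR adjusted p = 2.71e-08). S100a6 and S100a4, calcium-binding proteins of activated cells, were higher by 6.04 ± 0.30 and 5.84 ± 0.36, and Il2ra, the interleukin-2 receptor α chain, by 4.11 ± 0.37. The lower gene was Ccr9, a gut and thymus homing receptor, at -3.14 ± 0.32, named after its value was seen. Il4 and Il5, cytokines of type 2 helper cells, had 0 counts in the whole PD-1- population against 95 and 213 in the PD-1+ population, at least 28.0-fold and 62.8-fold higher against a floor of 3 counts over the population. In log2 these bounds are 4.81 and 5.97, both above the median of the list, which is the estimate of Il2ra. The median therefore stayed 4.11 with them, which is no check of it.

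The dimer and competitor partners of Bach2 had no common direction, with 4 higher, 5 lower and 5 not called of 14 tested and a median of 0.05. Among all tested genes, 21.9% were called higher and 19.6% lower. Batf and Junb, AP-1 factors, were higher by 1.74 ± 0.16 and 1.35 ± 0.13, and Junb stood at 1279 to 2578 CPM in the PD-1- and at 3387 to 5888 CPM in the PD-1+ libraries. The small Maf gene Mafg was higher by 2.41 ± 0.35, and Nfe2l2, the factor NRF2, was lower by -1.41 ± 0.15.

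Of 18 other tested factors of naive and resting T cells, 13 were lower, 1 higher and 4 not called, with a median of -1.11. Among all tested genes, 19.6% were called lower and 21.9% higher. Klf3, a Krüppel-like repressor, stood at 686 CPM in the PD-1- and at 143 CPM in the PD-1+ cells (-2.26 ± 0.13, edgeR adjusted p = 7.03e-09), and Id3 at -1.76 ± 0.20, Btg1 at -1.60 ± 0.21 and Zeb1 at -1.14 ± 0.16. Of 19 tested factors of effector T cells, 17 were higher, none lower and 2 not called, with a median of 2.69 (all 17 and the 2 had positive estimates). Tox2, with at most 1 count in a PD-1- library, could be tested only through the PD-1+ libraries. Maf, which drives Il10 and Il4, was higher by 5.12 ± 0.27, Nr4a2, induced by T cell receptor signals, by 4.14 ± 0.21, and Irf8 by 3.40 ± 0.20.

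Genes that accompany high Tcf7 among PD-1+ T cells of chronic infection were split in these PD-1+ cells, with 3 higher, 4 lower and 3 not called of 10 tested and a median of 0.02. Among all tested genes, 21.9% were called higher and 19.6% lower. Icos, a costimulatory receptor, was higher by 1.75 ± 0.13. Xcl1, also called higher, had 0 to 9 counts in PD-1- libraries and passed the count filter only through the PD-1+ libraries. Il7r, the interleukin-7 receptor, was lower by -4.25 ± 0.28, Ccr7 by -2.66 ± 0.24 and Id3 by -1.76 ± 0.20. Of 11 tested genes that accompany low Tcf7, 10 were higher and 1 was not called, with a median of 5.03. That median is the estimate of the gene not called, Ccl5 (edgeR adjusted p = 0.0713). Ccl5 stood at 23.7 and 23.9 CPM in 5-day and at 5182 and 1949 CPM in 10-day PD-1+ libraries. It was called by DESeq2 (adjusted p = 0.0125) and by edgeR without robust estimation (adjusted p = 0.00335). Havcr2, with at most 4 counts in a PD-1- library, could be tested only through the PD-1+ libraries. The same held for Tigit (4 to 17 counts in PD-1- libraries) and Ccl4 (0 to 25). All of these could hardly be called anything but higher. Tigit and Lag3, inhibitory receptors, were higher by 6.36 ± 0.33 and 6.88 ± 0.55, and Entpd1 (CD39) by 4.08 ± 0.32.

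**Figure D4:**
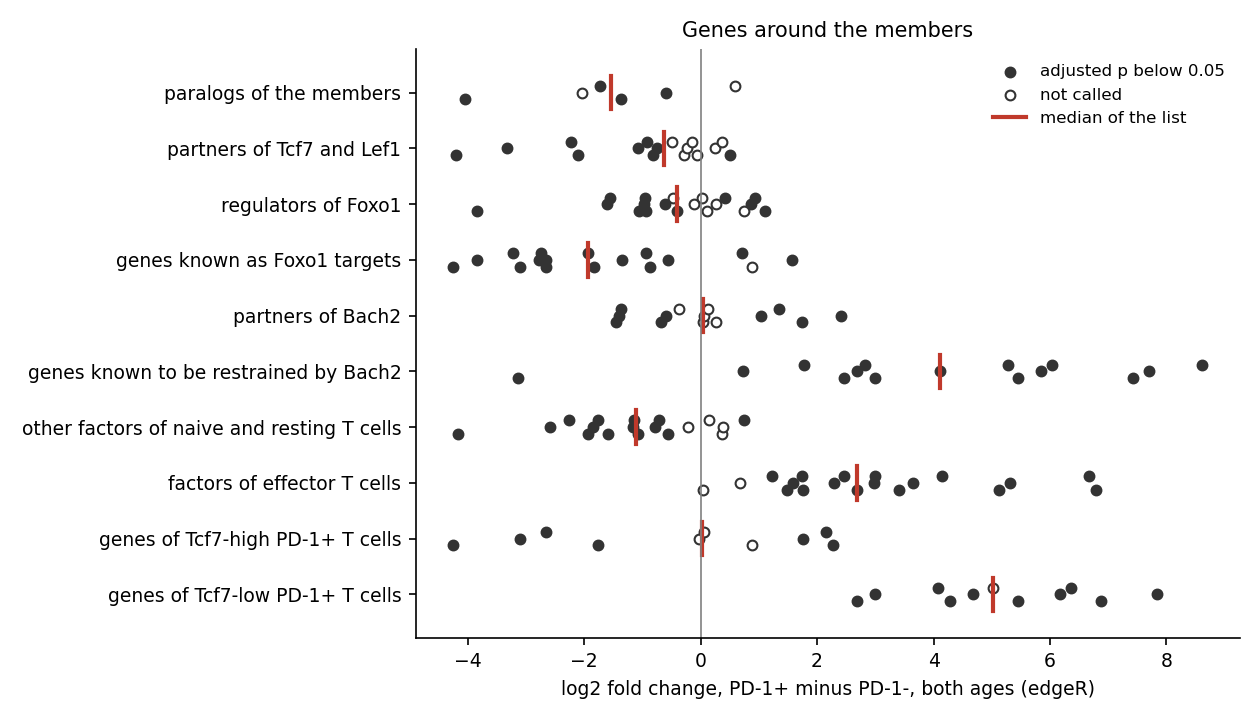
log2 fold change between PD-1+ and PD-1- cells over both ages for the tested genes of 10 lists around the 5 factors; each point is 1 gene, filled where its edgeR adjusted p is below 0.05, and the red line is the median of the list. The list restrained by Bach2 has a median of 4.11 and the Foxo1 targets -1.93; Il4 and Il5 are drawn at fitted values that depend on the prior count.

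The genes whose pattern over the 8 libraries was most like each factor were ranked by the root mean square difference of gene-centred log2 CPM among 6999 genes whose log2 CPM averaged at least 4. With the other 4 factors left out of the candidates, Lef1 was nearest to Aldh2 (0.194), Il6ra and Klhl3, and Tcf7 to Il6ra (0.128), Tgfbr3 and Fbxl22. Bach2 was nearest to Kif1b (0.180), Klhl3 and Ms4a6c, Foxp1 to Lipa (0.102), Kmt2c and Pmel, and Foxo1 to Usp3 (0.124), Setd1b and Id3. Il6ra, the interleukin-6 receptor, stood at 512 ± 16.99 CPM in the PD-1- and at 85.1 ± 22.1 CPM in the PD-1+ cells. Lef1 and Tcf7 differed from each other by 0.173, which is nearer than any candidate was to Lef1 and nearer than all but 2 were to Tcf7. Foxp1 and Foxo1 differed by 0.260 and Lef1 and Foxo1 by 0.606. These distances describe 8 libraries that also differ in PD-1, the contrast on which all 5 factors differed.

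Markers of other cells were counted beside these results. Among all tested genes, 21.9% were called higher in PD-1+ cells and 19.6% lower. Of 8 hepatocyte markers, 4 could be tested and all 4 were higher in PD-1+ cells, with summed levels of 2.27 to 7.45 CPM in the PD-1- and 24.4 to 62.3 CPM in the PD-1+ libraries. These 4 (Alb, Apoa1, Ttr and Ahsg) passed the count filter only through the PD-1+ libraries, so their calls as higher were largely set by the filter. Of 4 tested macrophage and Kupffer markers 1 was higher, with sums of 2.60 to 38.0 against 28.5 to 38.7 CPM. The higher gene, Cd5l, had 0 to 10 counts in PD-1- libraries and passed the count filter only through the PD-1+ libraries. The sum of 38.0 was that of 5-day PD-1- replicate 3, and the other PD-1- libraries reached 10.4 CPM at most. Without that library 3 of the 4 were called higher, Adgre1 (5.53, edgeR adjusted p = 0.0146) and C1qb (2.68, edgeR adjusted p = 0.014) besides Cd5l. No B cell marker of 5 tested was called by edgeR, also none at an unadjusted p below 0.05, with sums of 14.2 to 89.7 and 32.3 to 56.8 CPM. The 89.7 was again 5-day PD-1- replicate 3, and without it Cd79b was called higher in PD-1+ cells (1.59, edgeR adjusted p = 0.0106), as it was without the low-count filter (1.07, edgeR adjusted p = 0.0181). All 5 factors were called lower without that library as well. Of 4 tested thymocyte markers Cd8b1 and Cd1d1 were lower, Ptcra, Rag1 and Rag2 stayed at or below 3.56 CPM, and Dntt reached 7.16 CPM, with 26 counts in the PD-1- and 1 in the PD-1+ libraries. Gata1 was the 1 tested erythroid marker and was lower, at 16.0 ± 9.10 CPM in the PD-1- and 1.15 ± 0.893 CPM in the PD-1+ cells. With 0 to 6 counts in PD-1+ libraries, Gata1 passed the count filter only through the PD-1- libraries. Klrb1c and Ncr1, with at most 2 and 3 counts in a PD-1+ library, also passed it only through the PD-1- libraries. Of 6 tested markers of NK, innate-like and gamma-delta T cells 1 was higher (Tcrg-C1) and 2 lower (Klrb1c, Ncr1), and Eomes stayed at or below 3.51 CPM. With 1 library left out these counts ran from 0 to 2 higher and from 0 to 3 lower. The part of these cells in the differences of the 5 factors was not tested.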

How the data were processed

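The authors deposited raw read counts by gene symbol for the 8 libraries together. The submitters' processing notes name STAR 2.5.4, featureCounts and mm10. What annotation and strand setting were used, and how multiply mapped reads were treated, is not given in the sources used here. Per the labels' protocols, 1000 cells per library were lysed after sorting, and oligo(dT)-primed cDNA was amplified and tagmented. Amplified reads are not independent molecules, so counts overstate precision.

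The counts were tested as deposited with edgeR 4.0.16 in R 4.3.3 (filterByExpr, TMM scaling, robust quasi-likelihood F tests), a procedure tested on simulated data. Additive terms for age and PD-1 gave the effects over both ages or both populations, and a model of the 4 groups gave the rest. P-values were adjusted over the 11490 tested genes, with 0.05 as the threshold of a call. Standard errors divide the size of the log2 fold change by the root of F. The ratios between factors were compared after other values had been seen, with exact permutation tests in scipy 1.17.1 on counts plus 0.5.

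The 5 factors and the gene lists were chosen with earlier results of these data known. Named genes are the 5 factors, up to 4 tested genes per list with the smallest p of PD-1 over both ages, all tested paralogs, and the 3 genes most like each factor, leaving out unnamed models and receptor segments. Genes named outside this rule were chosen after their values were seen. They are Ctnnb1, Tle1, Tle3, Axin2, Ywhaz, Pdpk1, Ccr9, Il4, Il5, Klrg1, Hmox1, Tox, Tox2, Xcl1, Havcr2, Ccl4, Ccl5, the overlapping transcripts, and the single genes of the marker lists. Alternatives were other scaling (upper quartile, DESeq2 size factors), no low-count filter, the DESeq2 1.42.0 test, no robust estimation, a replicate block, each library left out and, added later, limma 3.58.1 on means per age and replicate number.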

Additional observations from a re-analysis of the deposited data

How the results depend on the processing

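For the PD-1 effect over both ages, at 5 days and at 10 days, each of the 5 factors kept its direction and its call under all alternatives run (70 values per comparison), with Lef1 between -2.85 and -2.64 and Foxo1 between -1.68 and -1.45 over both ages. The replicate numbers were not shown to pair the libraries: same-numbered libraries correlated at 0.0938 (5 days) and 0.114 (10 days) in their deviations from the group means. The fit with a replicate block called all 5 factors in the 3 PD-1 comparisons (Lef1 at -2.77 over both ages) and none in the interaction, where it called 483 genes instead of 244. For age over both populations, a fit added after seeing the data took 1 mean log2 CPM per age and replicate number (limma, 2 values against 2). It called none of the 5 factors, put Tcf7 at -0.010, and called 889 genes instead of 560. Within 1 population each such pair holds 1 library, so no block fit was made for age there. Some list genes lost their PD-1 call over both ages. Axin2 lost it by DESeq2 (adjusted p = 0.0606) and with the replicate block (edgeR adjusted p = 0.0765). Ywhaz and Tox lost it with the block (edgeR adjusted p = 0.0527 and 0.0729), and Pdpk1 without the low-count filter (edgeR adjusted p = 0.103). Hmox1 lost it when certain single libraries were left out.

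The number of factors called for age in PD-1+ cells ran from 0 to 1 over the left-out libraries, the 1 without 10-day PD-1+ replicate 2. With 1 library left out, genes called in all ran as low as 56 for age over both populations (560 with all libraries), 5 for age in PD-1- cells (31), 481 for age in PD-1+ cells (1651) and 57 for the interaction (244). Without the low-count filter these counts were 984 for age over both populations, 180 for age in PD-1- cells and 469 for the interaction. For age in PD-1- cells DESeq2 called 75 genes and the fit without robust estimation 19, and the latter called 123 in the interaction. PD-1 at 5 days called 3936 genes, and 2298 without 5-day PD-1+ replicate 2. PD-1 at 10 days called 3364 genes, and 2203 without 10-day PD-1- replicate 1.

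Some effects that passed no test with all libraries changed sign when 1 was left out. For age over both populations Tcf7 ran from -0.12 to 0.20 and Foxo1 from -0.032 to 0.18. For age in PD-1- cells Lef1 ran from -0.063 to 0.24 and Foxp1 from -0.039 to 0.27. For age in PD-1+ cells Tcf7 ran from -0.68 to 0.18, Bach2 from -0.48 to 0.41 and Foxp1 from -0.038 to 0.33. In the interaction Bach2 ran from -0.22 to 0.68 and Foxp1 from -0.14 to 0.23. The alternatives of the log2 count ratios were chosen after seeing the data. With 1 library left out, the ratio of Lef1 to Tcf7 ran from -0.16 to 0.041, that of Lef1 to Bach2 from -0.30 to 0.022 that of Tcf7 to Bach2 from -0.24 to 0.076 and that of Foxp1 to Foxo1 from -0.34 to -0.042. Without 10-day PD-1+ replicate 1 the populations no longer overlapped in Foxp1 to Foxo1 (-0.34), where they did with all libraries. With 5-day libraries alone Lef1 to Bach2 gave 0.25 and Tcf7 to Bach2 0.28, and with 10-day libraries alone Foxp1 to Foxo1 gave 0.11. The 6 ratios across the sets kept direction and did not overlap with any 1 library left out, where the smallest exact permutation p is 0.0571. The causes of these changes were not tested. Counts limit Bach2 most, with as few as 38 in a library; how small an age effect of the 5 factors could be detected was not measured.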
